A study of Mus musculus with 15 samples.

Results

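The *Epha4* locus was represented by the regions of the deposited tables that overlap an interval of chromosome 1 (mm39) taken as the *Epha4* gene. There were 8 such regions among the 44598 of the KD table and 4 among the 38036 of the OE table, 12 in all. The gene was chosen by earlier results of these data, taken here to be the higher values of the knockdown lines than of the scramble line. The values of the knockdown lines against that line are therefore a description and carry no test.

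ATAC-seq uses a transposase that inserts sequencing adapters into accessible DNA, so that reads collect where chromatin is open. The 15 libraries were made from 6DT1, a cell line of mouse mammary cancer grown in monolayer on plastic, and were labelled as untreated. The OE line carried introduced *Smarcd1*, and its control EV carried an empty vector. The KD4 and KD6 lines were *Smarcd1* knockdown lines, each with an shRNA, and their control Scr carried a scrambled shRNA. There were 3 libraries of each line. All 5 lines were made by viral transduction and drug selection, and whether a line is a clone or a pool is not stated in the sources used here. The labels give the genotype of both controls as wildtype, although each carries a vector. *Smarcd1* encodes a subunit of the SWI/SNF (BAF) complex, which moves nucleosomes. According to the labels the replicates were seeded from different passages on successive days, but that protocol describes RNA, so the p-values cover only differences between these libraries, and such differences may be technical. A change in how many cells carry a signal at the locus and a change within each cell cannot be told apart in such bulk libraries. Whether that signal is open DNA alone was not tested.

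EphA4 is a receptor tyrosine kinase that binds both ephrin-A and ephrin-B ligands, which are anchored to the membranes of neighbouring cells. Ligand binding clusters the receptor and starts signalling in the receptor cell and, in reverse, in the cell that carries the ephrin. EphA4 is best known for repelling growing axons, and Eph receptors also govern boundaries and adhesion between epithelial cells.

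No region was listed at the start of *Epha4* in either table. The RefSeq sequence of the 250 bases before that start is therefore shown, because it is the part of the gene in which accessibility would first be looked for and which the tables leave out. It lies at chr1:77515089-77515338 of GRCm38.p6, on the minus strand, a build whose positions cannot be set beside those of the regions. Capitals mark, from left to right, a GC box, a CCAAT box read on the other strand and the core of a cAMP response element read on the other strand.
Epha4 promoter: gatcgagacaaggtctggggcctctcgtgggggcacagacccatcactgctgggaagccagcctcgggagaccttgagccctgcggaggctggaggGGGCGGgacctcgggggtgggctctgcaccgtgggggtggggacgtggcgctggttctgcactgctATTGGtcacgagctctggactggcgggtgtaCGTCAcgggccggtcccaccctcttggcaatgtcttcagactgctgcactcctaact

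The *Epha4* promoter had a GC content of 66%, against a median of 52.4% over the 32851 promoters of the same length. It held 14 CG dinucleotides, against a median of 6. Motifs were searched by their letters on both strands. The GC box, GGGCGG, was found in 32.7% of all promoters. The CCAAT box was found in 33.8%. The cAMP response element core, TGACG, was found in 17.8%. Each had 1 match in *Epha4*, and none overlapped another. The letters TATAAA, present in 12.4% of promoters, had no match. The E-box, CANNTG, present in 66.2%, also had none. These matches are a description of the sequence and say nothing about binding.

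The regions lay far from other listed regions. The next region above the window was 1143.3 kb away in the KD table and 912.9 kb away in the OE table, and the next one below it was 588.7 kb away in both. In the GRCm38.p6 gene order the neighbouring protein-coding genes are *Slc4a3* below and *Pax3* above. *Epha4* is read towards lower coordinates, and the member nearest its 5′ end ended 9.16 kb short of the upper end of the window in the KD table and 9.23 kb short of it in the OE table.

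The spacing of the regions matched the spacing of *Epha4* exons. No annotation of mm39 was used, so the regions were shifted together along the 18 exons of the GENCODE vM1 transcript, and only distances were compared. With a single shift for each table, 8 of 8 regions of the KD table and 4 of 4 of the OE table lay on exons over at least 50% of their length. In all, 96.8% of the bases of the KD-table regions and 100% of those of the OE-table regions then fell on exons, which make up 4.28% of the 147904 bp gene. Among 118 other protein-coding genes of chromosome 1 that are long enough, 0 gave a shift that placed as many regions on exons. The placement rests on choosing the best shift, and it is a description with no test. As many regions were placed on exons by 96 shifts in the KD table and by 338 in the OE table. The shifts chosen for the tables differ slightly, so positions relative to exon edges are approximate.

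By this placement, 1 region of the KD table lay in exon 3 (chr1:77483262-77483838, 577 bp), 1 in exon 5 (chr1:77403187-77403500, 314 bp), 1 in exon 11 (chr1:77364453-77364615, 163 bp) and 1 partly in exon 14 (chr1:77357551-77357759, 209 bp). Exon 17 held an upstream region (chr1:77350187-77350414, 228 bp) and a downstream region (chr1:77349585-77350029, 445 bp). Exon 18, the last, also held an upstream region (chr1:77345381-77346309, 929 bp) and a downstream region (chr1:77344594-77345168, 575 bp). The first 2 exons held 0 regions, the last 2 held 4 of the 8, and 3 of the 8 had no coding base. By their coordinates, the 4 regions of the OE table lay wholly inside regions of the KD table. These were the exon 3, exon 5, exon 17 downstream and exon 18 downstream regions, covered over 27.4%, 52.2%, 65.4% and 67.5% of their length. The regions of the OE table therefore count bases that those of the KD table also count, and the members of the 2 tables are not independent.

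**Figure D1:**
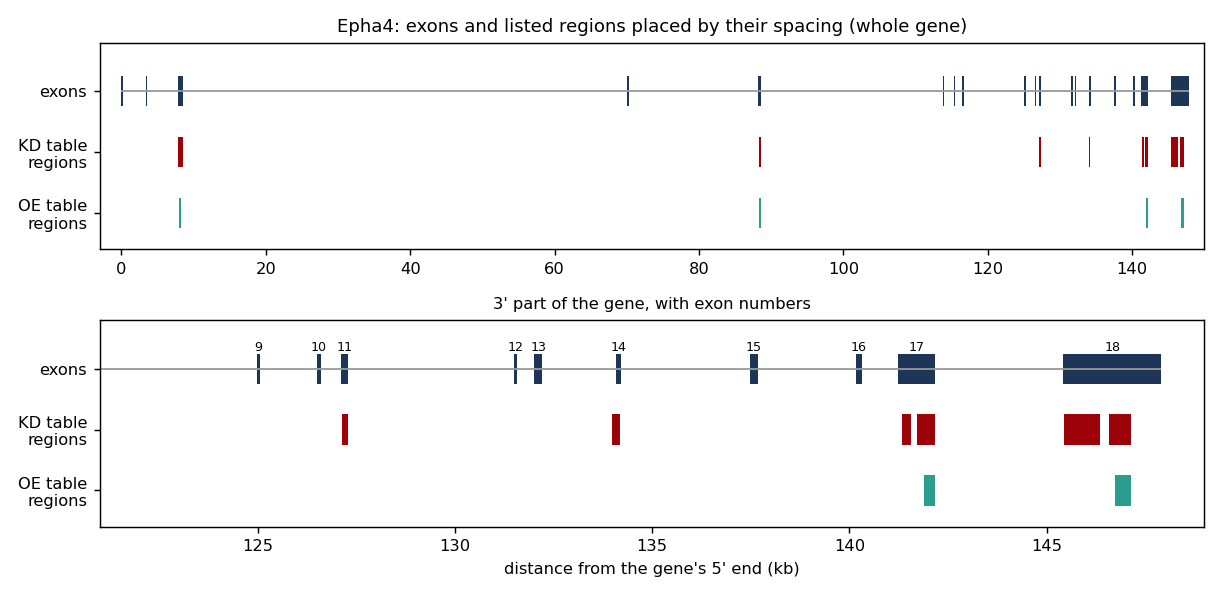
Exons of *Epha4* (top row of each panel) and the listed regions of the KD table and the OE table, placed by their spacing along the distance from the 5′ end of the gene in kb. Each table has its own shift, so the bars of the tables are slightly offset from each other. The upper panel shows the whole gene and the lower one its 3′ part with exon numbers; 8 of 8 and 4 of 4 regions lie on exons over at least 50% of their length, and none lies at the gene start.

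The study's methods describe ATAC-seq reads, while the sample labels describe RNA extraction for the same libraries and the submitters' processing notes name STAR, an aligner made for spliced RNA. Whether the reads on these exons came from open DNA alone was not tested.

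The members were modest in signal. Values are CPM, the rounded count of a region over 1000000 counts of its library, whose total was scaled with TMM factors. In the KD table the mean over 15 libraries ran from 0.333 CPM in the exon 14 region, where only 0.26% of all regions had a lower mean, to 6.04 CPM in the exon 3 region, which exceeded 51.7% of all regions. Per kilobase the levels ran from 1.59 CPM in the exon 14 region to 10.5 CPM in the exon 3 region, with the exon 5 region at 10.2 CPM. In the OE table the means were 2.74 CPM in exon 18, 2.09 CPM in exon 17, 1.33 CPM in exon 5 and 1.05 CPM in exon 3. Behind the sums over the gene stood 271 to 857 counts per library in the KD table, of totals between 16176521 and 23703741, and 110 to 305 counts in the OE table, of totals between 22668624 and 31225937.

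Summed over the 8 regions of the KD table, *Epha4* stood highest in KD6, then in KD4, and lowest in Scr. The sums were 24.3, 23.0 and 19.9 CPM in the OE libraries, against 23.8, 23.2 and 19.2 CPM in the EV libraries. They were 26.5, 31.0 and 27.1 CPM in KD4 and 39.7, 32.5 and 35.2 CPM in KD6, against 16.9, 16.3 and 14.5 CPM in Scr. Every KD6 library was above every KD4 library, every KD4 library was above every OE, EV and Scr library, and every Scr library was below all the others, while OE and EV overlapped almost completely.

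As means, the sums were 22.4 ± 2.27 CPM in OE and 22.1 ± 2.53 CPM in EV (SD, n = 3 each). They were 28.2 ± 2.47 CPM in KD4 and 35.8 ± 3.63 CPM in KD6, against 15.9 ± 1.25 CPM in Scr (SD, n = 3 each). The KD lines together stood 2.00-fold above Scr, and 1.44-fold above EV, which carries a different vector. In the KD table, neighbours in this order whose libraries overlap are OE and EV alone. The EV sum lay between the KD and Scr sums, with a log2 difference of 0.53 for KD against EV and of -0.47 for Scr against EV. Over the 4 regions of the OE table these differences were 0.69 for KD against EV and -0.28 for Scr against EV.

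**Figure D2:**
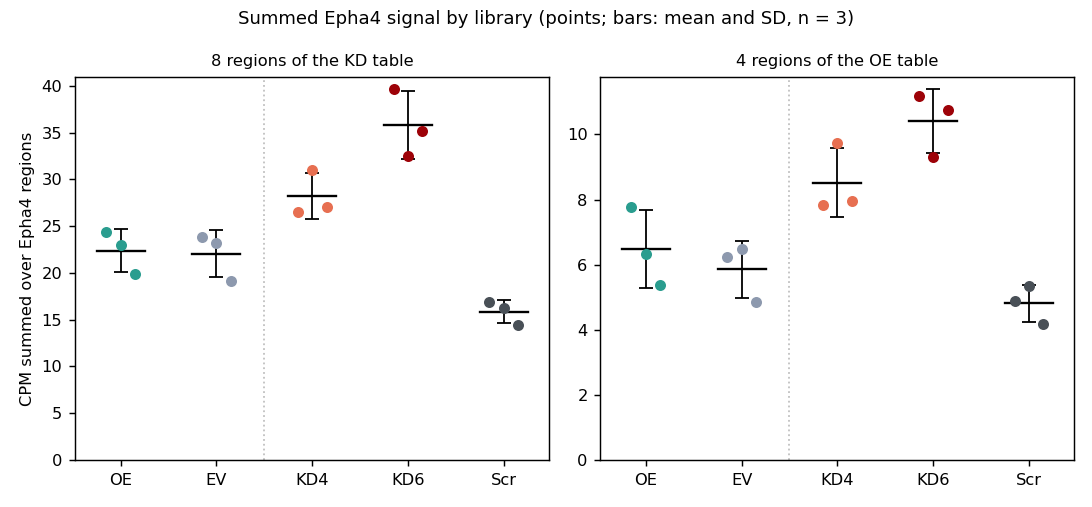
CPM summed over the *Epha4* regions of the KD table (left) and of the OE table (right) in each library (points), and bars for the mean and SD per line (n = 3). In the KD table KD6 lies at 32.5 CPM or more, KD4 between 26.5 and 31.0 CPM, OE and EV between 19.2 and 24.3 CPM, and Scr at 16.9 CPM or less. In the OE table KD6 overlaps KD4, and EV overlaps both OE and Scr.

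The 4 shorter regions of the OE table gave the same order of means, but their libraries were less apart. KD4 replicate 2, at 9.75 CPM, was above KD6 replicate 2, at 9.31 CPM. Scr replicates 1 and 2, at 4.89 and 5.34 CPM, were above EV replicate 3, at 4.86 CPM. The sums averaged 6.49 ± 1.20 CPM in OE and 5.86 ± 0.877 CPM in EV (SD, n = 3 each). They averaged 8.52 ± 1.07 CPM in KD4 and 10.4 ± 0.984 CPM in KD6, against 4.81 ± 0.580 CPM in Scr (SD, n = 3 each). The first and the last place in this order were shared by nearly all regions, but the places between varied. The exon 3 region of the KD table, for example, averaged 5.64 CPM in EV and 5.25 CPM in OE. The KD6 mean was the highest of the 5 lines in 8 of 8 regions of the KD table and 4 of 4 of the OE table, and the Scr mean was the lowest in 7 of 8 and 3 of 4. High KD and low Scr values are favoured by the choice of the gene, and the regions of the tables overlap. The share over all regions was not counted, so nothing is read from these counts.

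The exon 3 region, nearest the 5′ end and of the highest mean level, lies in the part of the gene that codes for the outside of the cell. It had 4.48, 5.57 and 5.69 CPM in OE, against 5.49, 6.43 and 4.99 CPM in EV. It had 6.48, 7.99 and 6.48 CPM in KD4 and 10.3, 7.26 and 7.56 CPM in KD6, against 3.65, 4.64 and 3.63 CPM in Scr. Each KD library was above each Scr and EV library, KD6 and KD4 overlapped, and the first KD6 library stood well above the rest. The log2 fold change of KD over Scr was 0.94 (SE 0.174).

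The exon 5 region differed most between KD and Scr. It had 3.71, 3.03 and 2.59 CPM in OE, against 2.35, 2.90 and 1.88 CPM in EV. It had 4.22, 4.04 and 3.47 CPM in KD4 and 5.69, 4.46 and 4.65 CPM in KD6, against 1.36, 1.56 and 2.03 CPM in Scr. The 3 lines KD6, KD4 and Scr did not overlap, and the KD libraries were above every EV library. The log2 fold change of KD over Scr was 1.40 (SE 0.202), with 1.24 (SE 0.226) for KD4 and 1.57 (SE 0.222) for KD6.

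The exon 18 downstream region, in the stretch after the coding sequence, had 5.98, 4.81 and 4.34 CPM in OE, against 5.64, 4.56 and 3.06 CPM in EV. It had 5.74, 5.74 and 5.49 CPM in KD4 and 8.05, 6.85 and 8.09 CPM in KD6, against 4.08, 3.49 and 2.72 CPM in Scr. KD6, KD4 and Scr were again apart from each other, but the KD4 libraries lay within the range of OE and EV. The log2 fold change of KD over Scr was 0.95 (SE 0.167).

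The exon 18 upstream region, also in the last exon, had 3.09, 3.39 and 2.76 CPM in OE, against 5.39, 3.57 and 3.53 CPM in EV. It had 2.98, 4.64 and 4.35 CPM in KD4 and 6.06, 5.12 and 4.39 CPM in KD6, against 3.15, 1.67 and 2.40 CPM in Scr. This was the 1 region of 8 in which every OE library was below every EV library, as in 5.17% of all regions of the KD table, the 1 in which the KD4 mean was below the EV mean, and 1 of those in which KD4 overlapped Scr. The log2 fold change of KD over Scr was 0.93 (SE 0.224).

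**Figure D3:**
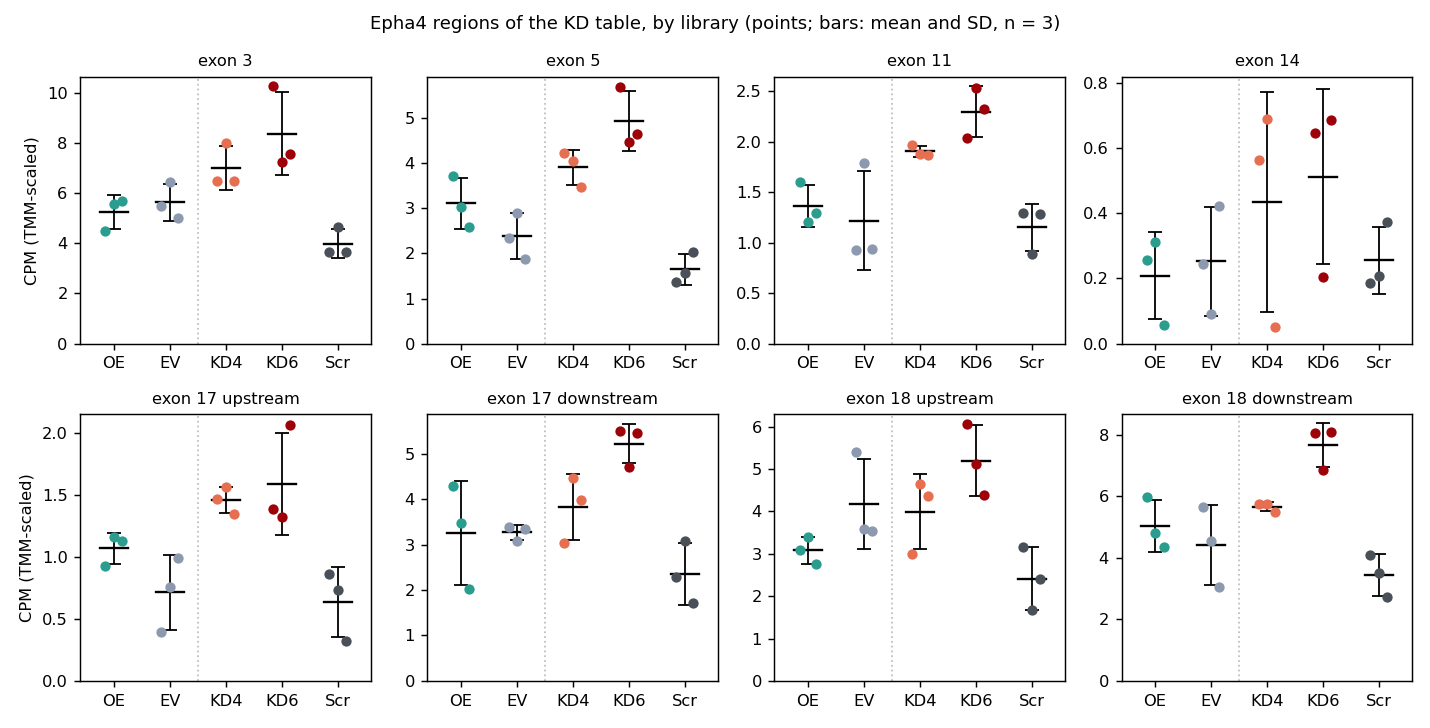
CPM of each of the 8 *Epha4* regions of the KD table in each library (points), bars for the mean and SD per line (n = 3), and panels in order from the 5′ to the 3′ end of the gene; each vertical axis starts at 0 and has its own scale. KD6 has the highest mean in all 8 panels, and the exon 14 region, at most 0.689 CPM, overlaps between all lines.

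The other 4 regions of the KD table had group means between 0.209 and 5.22 CPM. Their log2 fold changes of KD over Scr were 0.86 (SE 0.231) in exon 11, 0.86 (SE 0.591) in exon 14, 1.26 (SE 0.318) in the exon 17 upstream region and 0.92 (SE 0.209) in the exon 17 downstream region. The exon 14 region, the 1 in which the Scr mean was not the lowest, at 0.256 CPM in Scr, 0.209 CPM in OE and 0.253 CPM in EV, rested on 1 to 15 counts per library, and no difference was detectable there at this depth.

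Over all members, KD lay above Scr in 8 of 8 regions, with a median log2 fold change of 0.94, beside -0.01 over all 44289 regions tested. Past an FDR of 0.05 were 3 of 8, the exon 3, exon 5 and exon 18 downstream regions, where 0.255% of all regions tested were called higher. That count was 0 without Scr replicate 1 or without Scr replicate 2, and 1 without KD4 replicate 2, KD6 replicate 1 or Scr replicate 3. In 5 of 8 regions every KD4 and KD6 library was above every Scr library, as in 2.43% of all regions tested. These counts belong to the contrast on which the gene was chosen, and nothing is read from them.

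For each line alone the picture was similar in direction. KD4 over Scr called 1 of 8 regions, the exon 5 region, where 0.431% of all regions were called higher, with log2 fold changes between 0.70 and 1.24. Without KD4 replicate 2, Scr replicate 1 or Scr replicate 2 that count was 0. KD6 over Scr called 3 of 8, with the same positions as for both lines, where 0.142% of all regions were called higher, and with log2 fold changes between 0.98 and 1.57. That count was 0 without Scr replicate 1, and 1 without KD6 replicate 1, KD6 replicate 2, Scr replicate 2 or Scr replicate 3. Both lines and Scr belong to the contrast on which the gene was chosen, so the shared direction is favoured by that choice. Nothing is read from these counts either.

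The comparison of KD6 with KD4 asks whether the lines differ from each other at *Epha4*. All 8 regions lay on the side of KD6, beside 50.2% of all regions tested, with log2 fold changes between 0.12 and 0.44 and a median of 0.30. None of the 8 passed the test in edgeR or in DESeq2, where 0.224% of all regions did in edgeR, and 1 had an unadjusted p under 0.05. That was the exon 18 downstream region, at 7.66 ± 0.706 CPM in KD6 and 5.66 ± 0.143 CPM in KD4 (SD, n = 3 each), with a log2 fold change of 0.44 (95% interval 0.07 to 0.81) and an edgeR FDR of 0.624. Leaving out KD6 replicate 3 left 6 regions on the side of KD6, and leaving out KD4 replicate 3 left 7. The 8 regions were counted in the same libraries, so their signs are not independent.

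OE against EV compares the line with added *Smarcd1* with its control, and it was tested in the OE table. OE and EV are also different lines, so added *Smarcd1* and line cannot be told apart in this comparison. The region in exon 18 had 3.26, 2.34 and 2.48 CPM in OE, against 2.56, 2.42 and 1.60 CPM in EV. The region in exon 17 had 2.38, 1.85 and 1.22 CPM in OE, against 1.80, 2.07 and 1.70 CPM in EV. The region in exon 5 had 1.25, 1.29 and 1.02 CPM in OE, against 1.16, 1.12 and 0.943 CPM in EV. The values differed little between the lines in each of these. The region in exon 3 had 0.871, 0.858 and 0.651 CPM in OE, against 0.720, 0.876 and 0.616 CPM in EV. In each of the 4 regions the libraries of the lines overlapped.

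The log2 fold changes of OE over EV ran from -0.01 to 0.32. Of the 4, 3 were above 0 (all 4 without scaling factors), beside 53.6% of all regions tested. None passed the test in edgeR or in DESeq2, where 0.0106% of the 37765 regions tested did in edgeR, and 0 had an unadjusted p under 0.05. The smallest p belonged to the exon 18 region, with a log2 fold change of 0.32 (95% interval -0.17 to 0.80) and an edgeR FDR of 0.682. The 95% intervals of the 4 regions each included 0. Their lowest bound was -0.55 and their highest was 0.80, in different regions. For each region, a change in OE of either sign within its own interval is therefore compatible with these values. The smallest change that could be detected was not tested.

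In the knockdown lines the same regions of the OE table had higher means than in Scr. The exon 18 region had 3.29, 3.48 and 2.96 CPM in KD4 and 3.63, 3.52 and 4.09 CPM in KD6, against 2.14, 1.87 and 1.52 CPM in Scr. The exon 17 region had 1.79, 2.83 and 2.34 CPM in KD4 and 3.19, 2.78 and 3.23 CPM in KD6, against 1.35, 1.72 and 1.03 CPM in Scr. The exon 5 region had 1.67, 2.03 and 1.60 CPM in KD4 and 2.09, 1.55 and 2.10 CPM in KD6, against 0.699, 0.663 and 0.838 CPM in Scr. The exon 3 region, nearest the 5′ end, had 1.08, 1.41 and 1.07 CPM in KD4 and 2.28, 1.47 and 1.32 CPM in KD6, against 0.699, 1.09 and 0.800 CPM in Scr. In 3 of the 4 regions every KD library was above every Scr library, as in 2.41% of all regions of the OE table. In the exon 3 region KD4 and Scr overlapped, and the Scr mean of 0.863 CPM was above those of OE and EV. These values too belong to the contrast on which the gene was chosen.

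Scr against EV sets the controls side by side. The Scr libraries are part of the contrast on which the gene was chosen, and low values in Scr are favoured by that choice, so these values are a description and carry no test. All 7 regions that passed the filter on low counts had log2 fold changes below 0, between -0.79 and -0.08, while 53.0% of all regions tested lay above 0. The exon 11 region stood at 0.02 without scaling factors, however, and the exon 14 region was left out by the filter. The part of the exon 3 region listed in the OE table lay on the other side, at 0.22. Of the 7 regions 0 were past the FDR in edgeR, where 4.38% of the 43819 regions tested were called, 0 in DESeq2, and 2 had an unadjusted p under 0.05, as had 22.8% of all regions. The lowest was the exon 18 upstream region, at 2.41 ± 0.743 CPM in Scr and 4.17 ± 1.06 CPM in EV (SD, n = 3 each), with a log2 fold change of -0.79 (SE 0.260). Scr and EV differ in their vectors, and vector, selection and line cannot be told apart.

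Against EV, a comparison added after the levels had been seen, KD lay above 0 in 8 of 8 regions, beside 53.7% of all regions tested. The log2 fold changes lay between 0.14 and 1.08. This comparison called 1 of 8, the exon 5 region, with a log2 fold change of 0.88 (SE 0.190), where 0.556% of all regions were called higher. That count was 0 without KD4 replicate 2, without KD6 replicate 2 or without any 1 of the EV replicates. Every KD4 and KD6 library was above every EV library in 4 of 8 regions, as in 4.31% of all regions tested. The KD libraries are those on which the gene was chosen, so these values too are a description. The KD lines also differ from EV in their vectors, and knockdown, vector, selection and line cannot be told apart in this comparison.

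**Figure D4:**
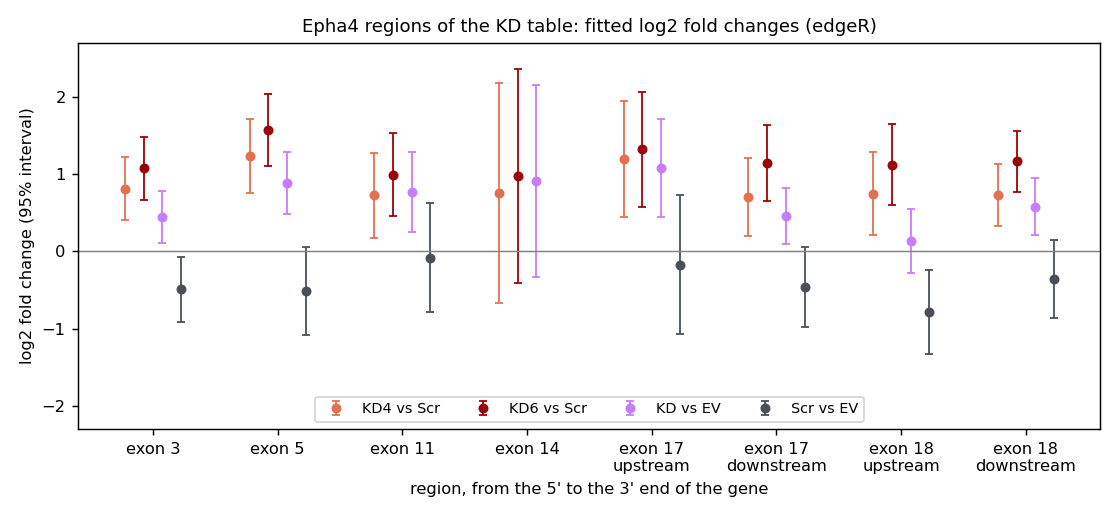
Log2 fold changes from edgeR with 95% intervals for the 8 *Epha4* regions of the KD table, in order from the 5′ to the 3′ end of the gene, for KD4 and KD6 against Scr, both KD lines against EV, and Scr against EV (the exon 14 region was left out of the last by the filter). All values of KD4 and KD6 against Scr lie above 0, between 0.70 and 1.57, and those of Scr against EV lie between -0.79 and -0.08 (exon 11 reaches 0.02 without scaling factors).

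The regions of *Epha4* varied together over the libraries. On log2(CPM + 0.5), Pearson's r between pairs of the 8 regions of the KD table over 15 libraries ran from 0.27 to 0.86, with a median of 0.68 over 28 pairs. Between the 4 regions of the OE table it ran from 0.69 to 0.88, with a median of 0.81 over 6 pairs. The points share libraries and their totals, and the lines differ in level, so these values describe the data only. Positive values are favoured by the choice of the gene, and r between pairs of other regions is not given beside them.

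Outside the gene, the 5 regions of the KD table whose level was most like the *Epha4* sum over 15 libraries had r between 0.873 and 0.913 on the same scale, beside a median of 0.003 over all regions. They were chr12:116334414-116335005, chr15:54616383-54616965, chr1:53964603-53965799, chr2:90746908-90747125 and chr3:104711506-104711662. All 5 had their highest mean in KD6 and their lowest in Scr, as had the sum they were picked to match. Both that order and the high r are favoured by the pick, so nothing is read from them. Of them 4 remained among the first 5 without scaling factors, and 0 were among the 5 found over the regions of the OE table.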

How the data were processed

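The 15 libraries were deposited as ATAC-seq and were grouped by the sample labels. The authors deposited expected counts per region, not normalized, in 1 table per comparison, on mm39. The methods name Bowtie2, MACS and Partek Flow, and the submitters' processing notes name STAR 2.7.8a. Of the values 95.1% (KD table) and 95.0% (OE table) were whole, and all were rounded to whole numbers before testing. A further 15 columns of each table match no sample and were not used.

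All regions were fitted in edgeR 4.0.16 (R 4.3.3; quasi-likelihood, TMM, filterByExpr) with Benjamini-Hochberg adjustment over each table and an FDR of 0.05. KD4, KD6 and Scr shared 1 fit, OE and EV another (OE table), Scr and EV another. KD vs EV was added after the data were seen. Sums had no test. Alternatives were other scalings, no filter, DESeq2 1.42.0, an FDR of 0.1, the replicate block, the other table, all libraries in 1 fit and each library left out. The procedure was tested on simulated data. Figures and sums used Python 3.11.15 with pandas 2.3.3, numpy 2.4.6 and matplotlib 3.10.9.

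Members, lists and rules were chosen with earlier results of these data known. By rule, values per library are given for the 3 regions of highest mean in each table, those called, the smallest p where none was called, and the region nearest the 5′ end. No mm39 annotation or genome was used, so no region sequence is given, and the lists of other Eph receptors, ephrins, signalling partners, cell type markers and *Smarcd1* itself could not be applied. The levels of *Smarcd1* were therefore not checked here. Same-group libraries differed beyond sampling noise, so none was counted a second time.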

Additional observations from a re-analysis of the deposited data

How the results depend on the processing

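The sums kept their sign under every alternative run. For OE vs EV, however, the log2 difference of the sums was 0.14, below its pooled SD of 0.25, and fell to 0.005 without OE replicate 1. Log2 fold changes changed sign in 2 of 8 regions for KD6 vs KD4 (exon 14, -0.29 to 0.77, and exon 17 upstream, -0.11 to 0.23), in 2 of 4 for OE vs EV (exon 17, -0.25 to 0.20, and exon 3, -0.10 to 0.26) and in 3 of 7 for Scr vs EV (exon 17 upstream, -0.45 to 0.16, exon 11, -0.26 to 0.30, and exon 3, -0.64 to 0.22). None of these was past the FDR, and 0 of 8 changed sign for KD, KD4 or KD6 vs Scr or for KD vs EV. The counts of regions past the FDR depended on the processing, and the cause was not tested beyond what each alternative changes. The share of all regions called under each alternative, the replicate block included, is not given beside these counts. A setting that calls more regions everywhere would raise them too, so nothing about the locus is read from their size. DESeq2 gave 5 regions for KD vs Scr, 2 for KD4 vs Scr and 5 for KD6 vs Scr. Over the regions of the other table the counts were 1 for KD vs Scr, 0 for KD4 vs Scr, 0 for KD6 vs Scr and 0 for KD vs EV. With all 15 libraries in 1 fit they were 2 for KD4 vs Scr, 5 for KD6 vs Scr and 2 for KD vs EV. At an FDR of 0.1 they were 2 for KD4 vs Scr, 1 for Scr vs EV and 3 for KD vs EV. Leaving out 1 library at a time gave 0 to 3 for KD vs Scr, 0 to 1 for KD4 vs Scr, 0 to 4 for KD6 vs Scr, 0 to 1 for KD vs EV, and 0 in every case for KD6 vs KD4, OE vs EV and Scr vs EV. Over the other table the log2 difference of the sums was -0.28 for Scr vs EV and 0.69 for KD vs EV. Leaving out 1 library at a time it ran from 0.93 to 1.05 for KD vs Scr, from -0.57 to -0.41 for Scr vs EV and from 0.43 to 0.59 for KD vs EV.

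Same-numbered libraries did not deviate together (r of their deviations from -0.24 to 0.30 in the KD table and from -0.35 to 0.37 in the OE table, 15 pairs each), and 6 of 15 and 7 of 15 pairs were highest with their own number, so the numbers were not taken as pairing. With the replicate number as a block the counts were 3 for KD vs Scr, 1 for KD4 vs Scr, 2 for KD6 vs Scr, 0 for KD6 vs KD4, 0 for OE vs EV, 0 for Scr vs EV and 1 for KD vs EV. Depth limits the exon 14 region most, with 1 to 15 counts per library.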
